A study of Pimephales promelas with 20 samples.

Results

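Among 15 small RNA libraries from the fathead minnow (Pimephales promelas, a cyprinid fish used in toxicity testing), each made from whole larvae, 7 held many reads of one piRNA entry, piR-dre-644638, and 8 held few. Of the 20 libraries of the series, these 15 are the ones with a column in the piRNA tables. A library was placed in the high set where piR-dre-644638 had 50 or more reads per M forward-strand piRNA reads, where M is the unit of scale used in CPM, and in the low set otherwise. The high set held EE2 replicates 5, 6 and 8 and control replicates 1, 2, 7 and 10. The low set held EE2 replicates 1, 4, 7 and 9 and control replicates 3, 4, 6 and 9. Larvae of the EE2 group were held from 48 to 96 h after hatching under static exposure to 10 ng/L of EE2, the synthetic estrogen ethinyl estradiol. Control larvae had the same schedule at 0 ng/L. All libraries were made from 1000 ng of total RNA; the labels do not say how many larvae or vessels each stands for, so the p-values speak only of variation among libraries. The high and low sets were defined from the measured reads and are not treatment groups of the study, and the p-values take no account of piR-dre-644638 having been chosen for its spread.

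piRNAs guide PIWI proteins, chiefly in germ cells, where they keep transposons silent, in zebrafish as in other animals. miRNAs are a shorter class bound by Argonaute proteins, and they repress messenger RNAs through a short pairing seed. The piRNA entries are zebrafish (Danio rerio) sequences on which minnow reads were counted, and the miRNA entries carry numbered identifiers. The files pair no identifier with a sequence, a known name, a target or a genome position, so entries are described by their levels alone. In RNA from whole larvae, fewer cells of a kind and less RNA per cell cannot be told apart.

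The entry that made the split spread widely between libraries, and its values are a description. In the high set, piR-dre-644638 stood at 92.1, 130, 172, 278, 597, 837 and 1125 reads per M, and in the low set at 2.80, 5.29, 6.68, 10.8, 11.6, 11.8, 14.7 and 17.3. The highest was control replicate 2, with 2048 reads, and the lowest was EE2 replicate 4, with 7. The library just above the threshold was EE2 replicate 6, at 92.1 reads per M (95% exact binomial interval 81.7 to 103, counting error only). The library just below it was EE2 replicate 9, at 17.3 with 28 reads, so no library lay near 50. The high set took 3 of 7 EE2 libraries and 4 of 8 control libraries, and no relation of the split to the exposure was found (Fisher's exact test, two-sided, p = 1.0).

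**Figure D1:**
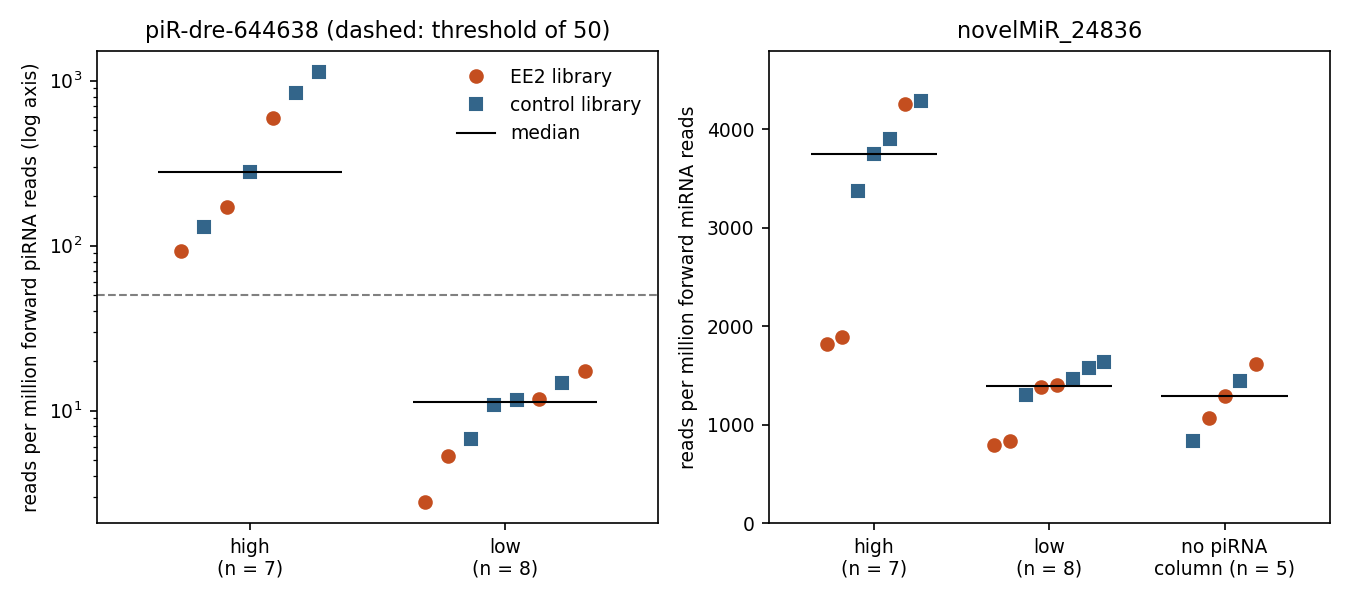
Reads per M of piR-dre-644638 (left, log axis, threshold dashed) and of novelMiR_24836 (right, linear axis) in single libraries, with the median of each set as a line. All 7 high libraries lie at 92.1 or more on the left and at 1824 or more on the right, and the 5 libraries without a piRNA column lie between 832 and 1615 on the right.

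A miRNA entry, novelMiR_24836, was named together with the split, so its levels are given without a test. It ran from 1824 to 4292 reads per M forward miRNA reads in the high set (median 3754) and from 790 to 1636 in the low set (median 1393). The sets did not overlap. EE2 replicates 6 and 8 were the lowest of the high set, at 1824 and 1893, and the other 5 high libraries had at least 3378. The 5 libraries that have no piRNA column played no part in the split. They had from 832 to 1615 reads per M of novelMiR_24836, and all 5 lay within the range of the low set.

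Depth and the balance of RNA classes were compared between the sets by 9 library measures. Forward miRNA totals were 17.4 ± 3.99 M counts in the high set and 15.1 ± 3.49 M in the low set (SD, n = 7 and 8; exact permutation within exposure, two-sided, p = 0.230, adjusted p = 0.414). There were 13.9 ± 4.64 piRNA counts per 100 miRNA counts in the high set and 12.1 ± 1.63 in the low set (exact permutation p = 0.378, adjusted p = 0.566). Of the 9, 1 passed: 2015 ± 8.96 forward piRNA entries had at least 1 read in the high set and 1984 ± 22.4 in the low set (exact permutation p = 0.00327, adjusted p = 0.0294). That call was lost, at adjusted p from 0.0588 to 0.103, when any of EE2 replicates 5, 6 and 8 or control replicates 1, 2, 6 and 10 was left out. Forward piRNA totals were 2.34 ± 0.640 M in the high set and 1.83 ± 0.510 M in the low set (exact permutation p = 0.102, adjusted p = 0.293), and their part in the number of entries seen was not tested.

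The forward miRNA table, which the split did not use, held entries that differed between the sets in both directions. Of 498 forward-strand miRNA entries tested besides novelMiR_24836, 70 passed an adjusted p of 0.05 for high against low with exposure as a covariate (edgeR quasi-likelihood test), which is 14.1% of those tested. Of these, 53 rose (10.6%) and 17 fell (3.41%) in the high set. For 1 of the 53, no low library reached the level of the filter on low counts (0.607 reads per M without TMM factors). It was the only such entry tested, it entered through the high set, and it was not taken out of these counts. The median log2 fold change was 0.97 among those that rose and -0.57 among those that fell, against -0.07 over all entries tested. Scaling by library size alone, without TMM factors, raised the median of all entries by 0.15 on the log2 scale and gave 76 higher and 5 lower calls. DESeq2 called 60 higher and 27 lower, among them all 70. In 14 entries (2.81%) the sets did not overlap, 11 higher (2.21%) and 3 lower (0.602%) in the high set. The 17 that fell include novelMiR_30955 and novelMiR_41265, which passed the filter on low counts through the low set. novelMiR_30955 is also 1 of the 3 lower entries without overlap, and neither was taken out of these counts.

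The 6 rising miRNAs with the smallest p fell into a moderately abundant and a scarce kind. novelMiR_32754 had 428, 617 and 681 CPM (TMM-normalised counts per M counts; lowest, median and highest library) in the high set, against 258, 300 and 399 CPM in the low set (log2 fold change 0.86 ± 0.11 SE, edgeR adjusted p = 0.000200). novelMiR_5939 had 762, 1255 and 1421 CPM in the high set, against 438, 579 and 741 CPM in the low set (0.97 ± 0.12, adjusted p = 0.000200). novelMiR_46489 had 405, 1011 and 1174 CPM in the high set, against 235, 334 and 442 CPM in the low set (1.38 ± 0.19, adjusted p = 0.000203). Of these 3, novelMiR_46489 alone had overlapping sets, where EE2 replicate 8 in the high set lay under control replicate 4 in the low set.

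The scarce kind moved further. novelMiR_29462 had 8.28, 17.1 and 55.2 CPM in the high set, against 0.883, 1.70 and 4.50 CPM in the low set (log2 fold change 3.14 ± 0.42 SE, edgeR adjusted p = 0.000200), the largest rise among the miRNAs called. novelMiR_24519 had 8.88, 21.4 and 44.4 CPM in the high set, against 2.47, 5.18 and 6.55 CPM in the low set (2.18 ± 0.30, adjusted p = 0.000203). novelMiR_11967 had 12.7, 21.9 and 31.0 CPM in the high set, against 6.70, 8.36 and 12.2 CPM in the low set (1.37 ± 0.18, adjusted p = 0.000200). In all 3, every high library lay above every low library, and EE2 replicates 6 and 8 were the lowest high libraries.

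**Figure D2:**
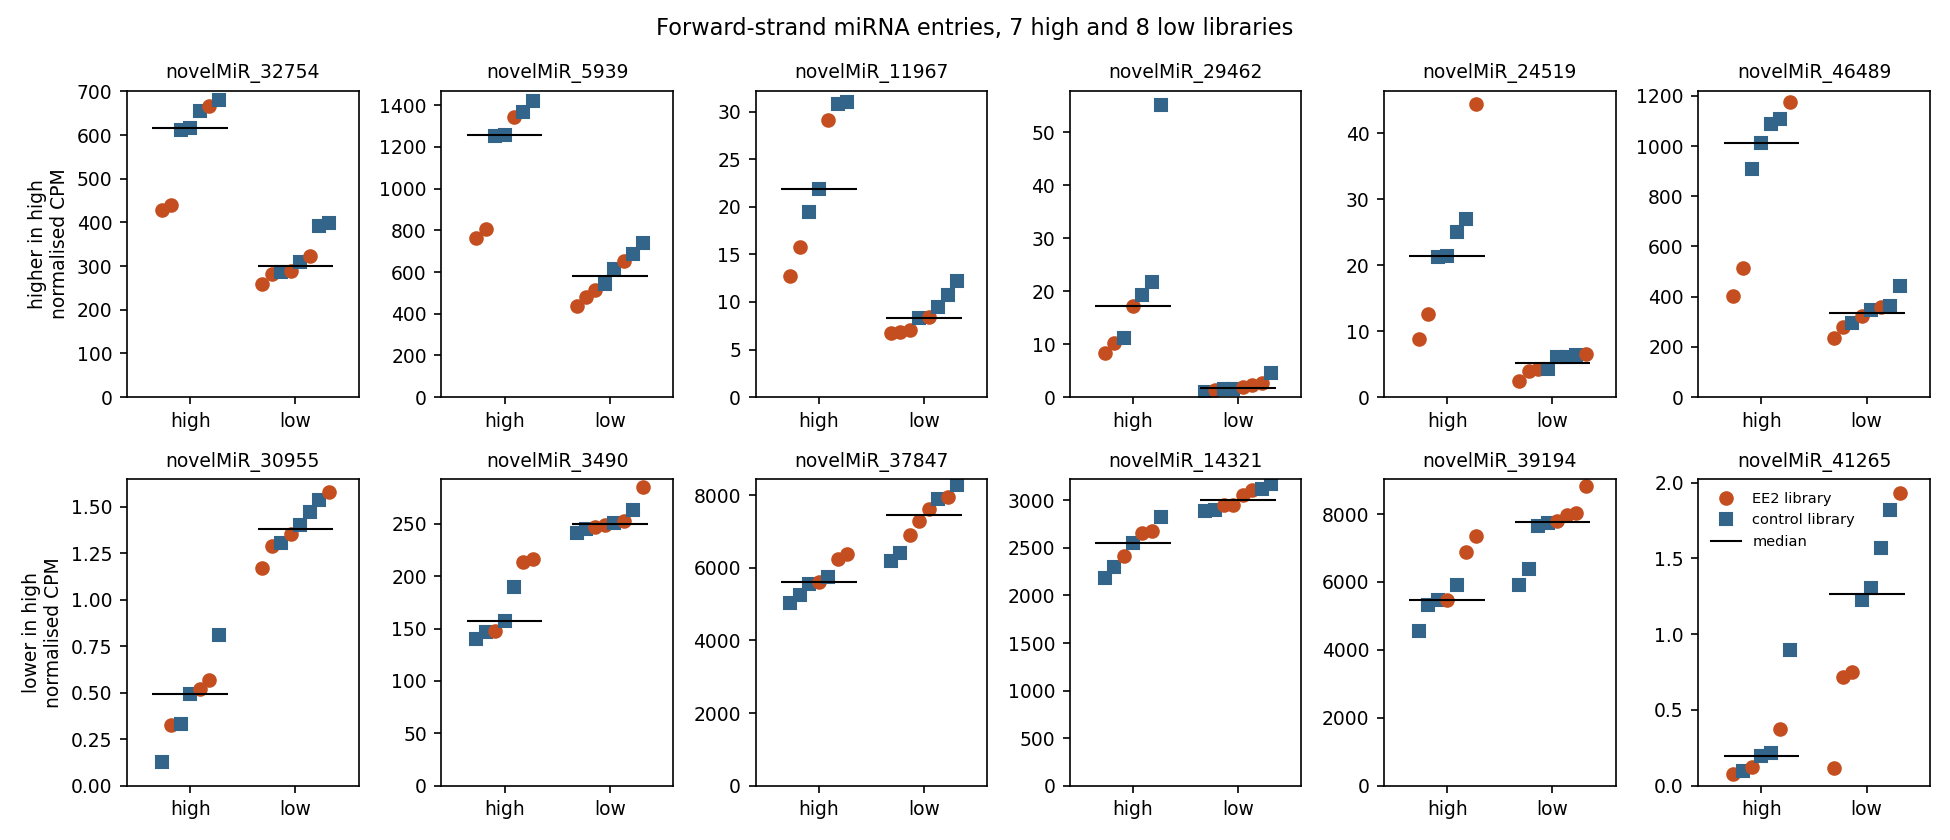
TMM-normalised CPM (linear axes from 0) of the 6 rising (top) and 6 falling (bottom) forward miRNA entries with the smallest p, 1 point per library, with set medians as lines. For novelMiR_32754 the high EE2 replicates nearest the low set are 6 and 8, at 428 and 439 CPM.

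The falling miRNAs included more abundant entries with smaller differences. novelMiR_37847 had 5018, 5610 and 6381 CPM in the high set, against 6184, 7445 and 8284 CPM in the low set (log2 fold change -0.36 ± 0.07 SE, edgeR adjusted p = 0.00349). novelMiR_39194 had 4541, 5482 and 7356 CPM in the high set, against 5913, 7765 and 8818 CPM in the low set (-0.35 ± 0.08, adjusted p = 0.0110). novelMiR_14321 had 2185, 2547 and 2824 CPM in the high set, against 2887, 3006 and 3176 CPM in the low set (-0.26 ± 0.06, adjusted p = 0.0109). The sets overlapped for the first pair and not for novelMiR_14321, and all 3 lost their call when scaled by library size alone, at adjusted p = 0.0728, 0.109 and 0.408. novelMiR_14321 also lost it without EE2 replicate 5 (adjusted p = 0.0561).

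The other 3 falling miRNAs kept their call under that scaling. novelMiR_3490 had 140, 157 and 217 CPM in the high set, against 241, 250 and 286 CPM in the low set (log2 fold change -0.55 ± 0.10 SE, edgeR adjusted p = 0.00125), with no overlap. novelMiR_30955 was near the limit of detection, with 60 reads in all in the high set and 160 in the low set (-1.59 ± 0.28, adjusted p = 0.00118). novelMiR_41265 had 35 reads in the high set and 138 in the low set (-2.10 ± 0.52, adjusted p = 0.0133). For novelMiR_30955 all 7 high libraries lay below all 8 low ones, at up to 0.813 CPM against at least 1.17 CPM. Both scarce entries passed the filter on low counts (0.607 reads per M without TMM factors) through the low set. Of the high set, only control replicate 1 reached that level for novelMiR_30955, and only control replicate 10 for novelMiR_41265. The filter thus favoured a fall in these 2 entries, and their tests and the lack of overlap are a description.

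The fall with the largest fold belonged to novelMiR_18155, an entry chosen here after its values were seen. It lay under 10 CPM in 6 of 7 high libraries, at no more than 2.96 CPM, and in 1 of 8 low libraries, control replicate 4, at 1.34 CPM. The 1 remaining high library, control replicate 1, had 77.4 CPM, and the remaining low libraries had 82.9 to 238 CPM (log2 fold change -4.00 ± 1.2 SE, edgeR adjusted p = 0.0336). The call was lost when any of EE2 replicates 5, 6 and 8 or control replicates 2, 6, 7 and 10 was left out, at adjusted p up to 0.101.

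Together the 53 rising miRNAs held 1.10% to 1.86% of forward miRNA counts in the high set (median 1.71%) and 0.686% to 1.00% in the low set (median 0.853%). The 17 falling ones held 6.65% to 7.57% in the high set (median 7.29%) and 7.13% to 8.72% in the low set (median 8.13%). These sums describe entries that the test picked. In the 5 libraries without a piRNA column, which the test did not use, the same 53 entries held 0.746% to 0.983% of counts and the same 17 held 7.30% to 8.43%. For each of the 6 rising miRNAs named above, 0 of these 5 libraries reached the range of the high set.

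Of the 10 miRNAs with the largest mean share, 0 rose and 1 fell, a share of calls near the 14.1% over all entries. The 1 that fell was novelMiR_34702, at 28463, 34245 and 37627 CPM in the high set, against 33384, 41232 and 45243 CPM in the low set (log2 fold change -0.25 ± 0.07 SE, edgeR adjusted p = 0.0228). That call was lost with library size alone (-0.10, adjusted p = 0.386) and without any of EE2 replicates 1, 5 and 9 or control replicates 6 and 9 (up to 0.0860). For the 10, the median log2 fold change was -0.17, beside -0.07 over all entries, and with library size alone it was -0.01 beside 0.08. The 3 most abundant, novelMiR_21068, novelMiR_45908 and novelMiR_27736, did not pass (edgeR adjusted p = 0.188, 0.195 and 0.691).

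On log2 values of all tested forward miRNA entries, the first principal component held 32.2% of the variance and placed the 7 high libraries at 1.74 to 12.5 and the 8 low libraries at -9.28 to -1.16. The split thus lay along the largest axis of miRNA variation in these 15 libraries. For forward piRNA entries neither of the first 2 components separated the sets. The first (30.3% of the variance) ran from -16.2 to 39.0 in the high set and from -24.1 to 15.5 in the low set. The second (24.7%) ran from -8.12 to 33.6 in the high set and from -19.4 to -4.70 in the low set, with control replicates 2 and 7 and EE2 replicate 5 at 28.9 or more.

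**Figure D3:**
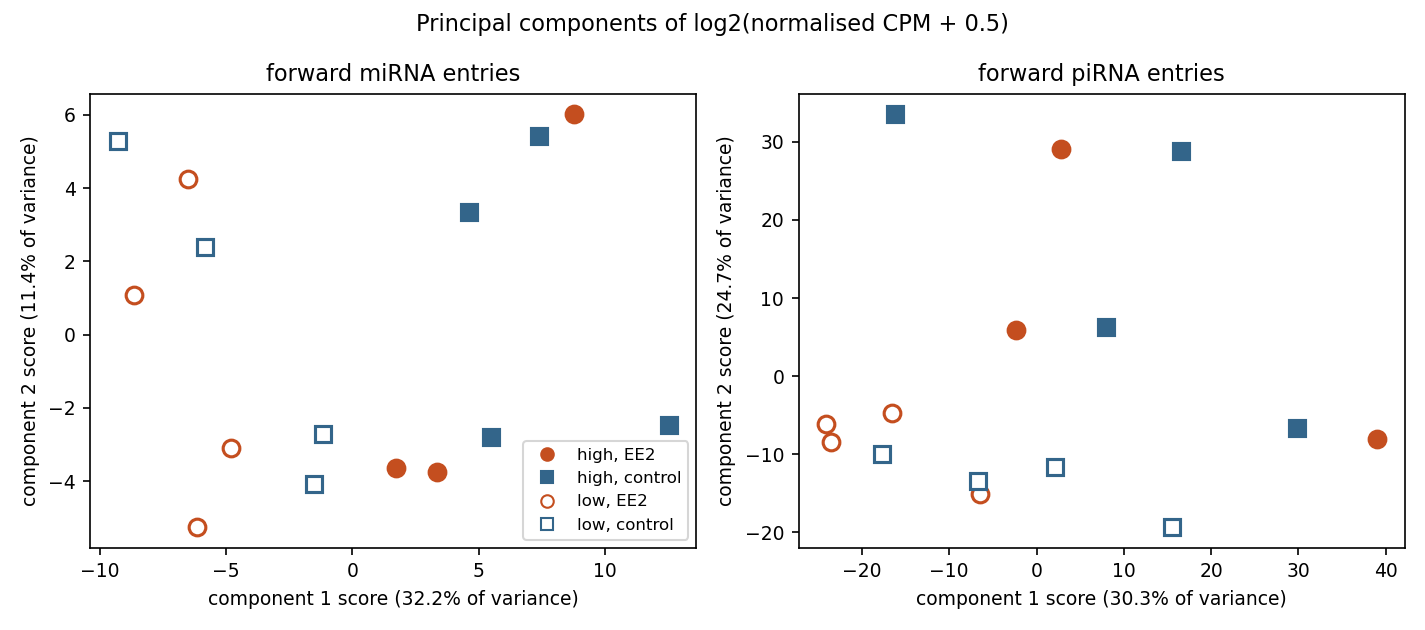
Scores of the 15 libraries on the first 2 principal components of log2(normalised CPM + 0.5), for forward miRNA (left) and forward piRNA entries (right, without piR-dre-644638). Filled symbols are high libraries, which lie right of 1.74 on the first miRNA component and mix with the low libraries on the first piRNA component.

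Several rising miRNAs varied together. With Pearson's r over 0.98 between log2 levels over the 15 libraries as the link, 13 of the 53 had a partner, in 4 groups. The largest group joined novelMiR_32754, novelMiR_5939, novelMiR_46489, novelMiR_19083, novelMiR_8888 and novelMiR_42502, whose mean level was 481 to 954 CPM in the high set and 302 to 440 CPM in the low set. These 6 followed novelMiR_24836 at r from 0.957 to 0.979 over the same libraries. By profile, the miRNAs most like piR-dre-644638 were novelMiR_11967 (r = 0.92), novelMiR_29462 (0.92) and novelMiR_19083 (0.91), and the least like were novelMiR_30955 (-0.88) and novelMiR_3490 (-0.87). The points share libraries, depth and the split itself, so these coefficients are descriptions.

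The forward piRNA entries closest to piR-dre-644638 followed it almost exactly. piR-dre-712769, piR-dre-1169243 and piR-dre-732022 had r = 0.99 with it over 15 libraries. For every read of piR-dre-644638, the pooled libraries held 0.478 reads of piR-dre-712769 in the high set and 0.447 in the low set. The same ratio was 0.351 and 0.340 for piR-dre-1169243 and 0.352 and 0.362 for piR-dre-732022. Whether these entries share reads was not tested, so they are described only, at 43.7 to 509 CPM in the high set against 1.47 to 7.45 CPM in the low set for piR-dre-712769.

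Among all forward piRNA entries tested, the calls were mainly rises in the high set. Of 1724 forward piRNA entries tested, 119 passed (6.90%), 103 rising (5.97%) and 16 falling (0.928%) in the high set (edgeR quasi-likelihood test, adjusted p under 0.05). With the 3 entries closest to piR-dre-644638 taken out, 115 passed, 99 rising and 16 falling. Of the entries tested, 42 had r over 0.9 with piR-dre-644638, those 3 among them. The split came from these same forward piRNA counts, so calls of such entries largely restate it. How many of the 103 they are was not counted. All 103 rose by more than 2-fold and 28 by more than 8-fold, with a median log2 fold change of 2.11, against 0.01 over all entries. Those that rose were mostly scarce, with a median of 24.5 CPM, against 40.4 CPM over all entries. These counts and medians include 21 of the 103 that had no low library at the level of the filter on low counts. All 21 such entries tested were called, so the filter had fixed their rise. Without a filter on low counts 222 entries passed, 201 rising and 21 falling, and with library size alone 94 rose and 3 fell.

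**Figure D4:**
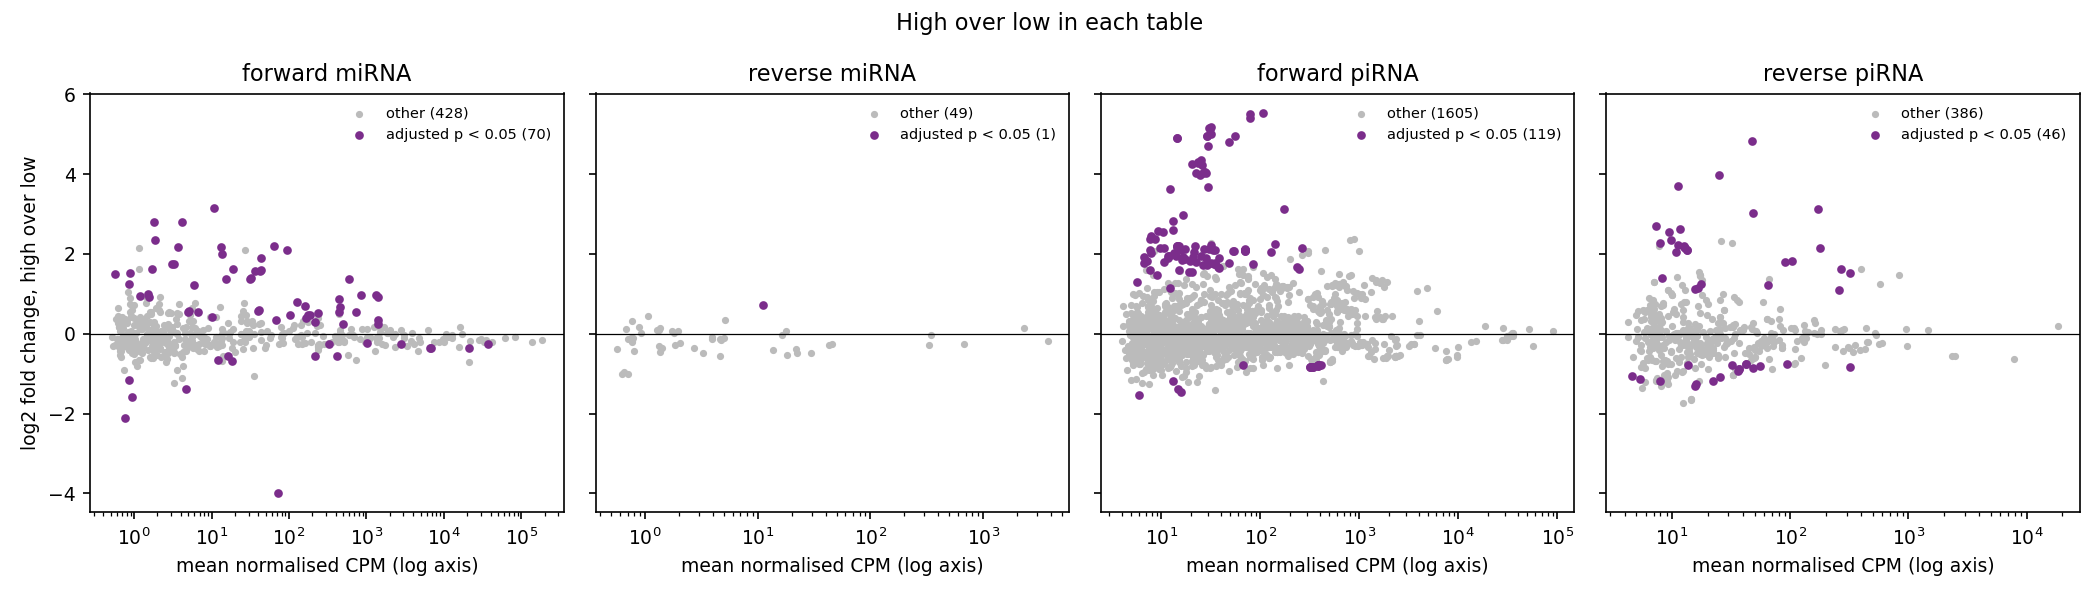
Log2 fold change of high over low against mean normalised CPM (log axis) in the 4 tables, with entries past an adjusted p of 0.05 in purple. The 103 rising forward piRNA calls have a median level of 24.5 CPM and a median change of 2.11, with 21 of them fixed to rise by the filter on low counts.

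Among the named rising piRNAs not so close to piR-dre-644638, piR-dre-7165 had 5.22, 20.6 and 166 CPM in the high set (lowest, median, highest library), against 0, 1.72 and 2.95 CPM in the low set (log2 fold change 5.15 ± 0.73 SE, edgeR adjusted p = 0.000817). piR-dre-2176 had 5.22, 20.6 and 156 CPM in the high set, against 0, 1.86 and 3.44 CPM in the low set (4.96 ± 0.72, adjusted p = 0.000817). piR-dre-2177 matched it closely, with 875 reads against 879 in the high set and 28 reads each in the low set. In these 3 entries no low library reached the level of the filter on low counts (5.15 reads per M at library sizes without TMM factors). The fit applied the filter with TMM factors, where no low library had more than 3.44 CPM of them. The filter asks for as many libraries at its level as the high set holds. These 3 entries thus entered the test through the high set and had to differ, and their folds rest on 26 to 28 reads in the low set. Scaled by library size alone, they did not pass the filter. At 5.15 reads per M without TMM factors, 21 of the 103 had no low library, and all 21 such entries tested were among the 103. The sets of the 3 named entries did not overlap, which the filter had fixed. Control replicates 2 and 7 and EE2 replicate 5 held the highest levels. In all, 50 entries (2.90%) had sets without overlap, 49 of them higher (2.84%) and 1 lower (0.0580%) in the high set. These counts include entries that entered through the high set, for which the filter fixed the lack of overlap. How many of the 49 they are was not counted, nor how many of the rises over 8-fold.

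The rising entries were far from independent. Of the 103, 59 had a partner at r over 0.98, and linking such partners left 58 separate profiles. A group of 12 led by piR-dre-595336 had log2 fold changes of 3.67 to 4.34, with a mean level of 12.0 to 154 CPM in the high set and 1.29 to 5.12 CPM in the low set. Those low-set levels lay near or under the level of the filter on low counts. How many of the 12 entered the test through the high set was not counted. A group of 11 led by piR-dre-1168411 had changes of 1.80 to 2.24, with 49.3 to 265 CPM in the high set and 21.1 to 40.0 CPM in the low set. A group of 7 led by piR-dre-270074 had 8.54 to 52.7 CPM in the high set and 2.81 to 8.92 CPM in the low set. Of the 103, control replicate 2 was the highest of the high libraries for 88 and control replicate 1 the lowest for 59.

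The high libraries were thus not ordered alike in both classes. Among the 53 rising miRNAs, EE2 replicate 8 was the lowest high library for 29 and EE2 replicate 6 for 15, while control replicate 1 was the lowest for 1 and the highest for 13. Control replicate 2 was the highest for 15 of them and EE2 replicate 5 for 12.

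The falling forward piRNAs were largely one group. Of the 16, 11 were linked at r over 0.98, with log2 fold changes of -0.85 to -0.79. Its first member, piR-dre-1141898, had 168, 237 and 367 CPM in the high set, against 260, 414 and 613 CPM in the low set (log2 fold change -0.85 ± 0.21 SE, edgeR adjusted p = 0.0190). piR-dre-1326714 and piR-dre-210838 belong to the same group (-0.84 for both), and all 3 lost their call without control replicate 9 or with library size scaling (adjusted p = 0.0548 to 0.0562 with that scaling, and 0.0529 for each without control replicate 9). piR-dre-1035301 had 4.32, 7.16 and 11.3 CPM in the high set, against 10.3, 18.4 and 51.3 CPM in the low set (-1.46 ± 0.34, adjusted p = 0.0109), and piR-dre-905980 (-1.38 ± 0.34, adjusted p = 0.0187) was its partner. piR-dre-1249427 had 51 reads in all in the high set and 116 in the low set (-1.53 ± 0.38, adjusted p = 0.0190). Of the high set, only EE2 replicate 8 reached the filter's level for it (5.15 reads per M without TMM factors). This entry thus passed the filter through the low set, which favoured a fall, and its test is a description. With 1 library left out in turn, it passed the filter in 9 of 15 fits. The sets overlapped for each of these 6 entries.

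**Figure D5:**
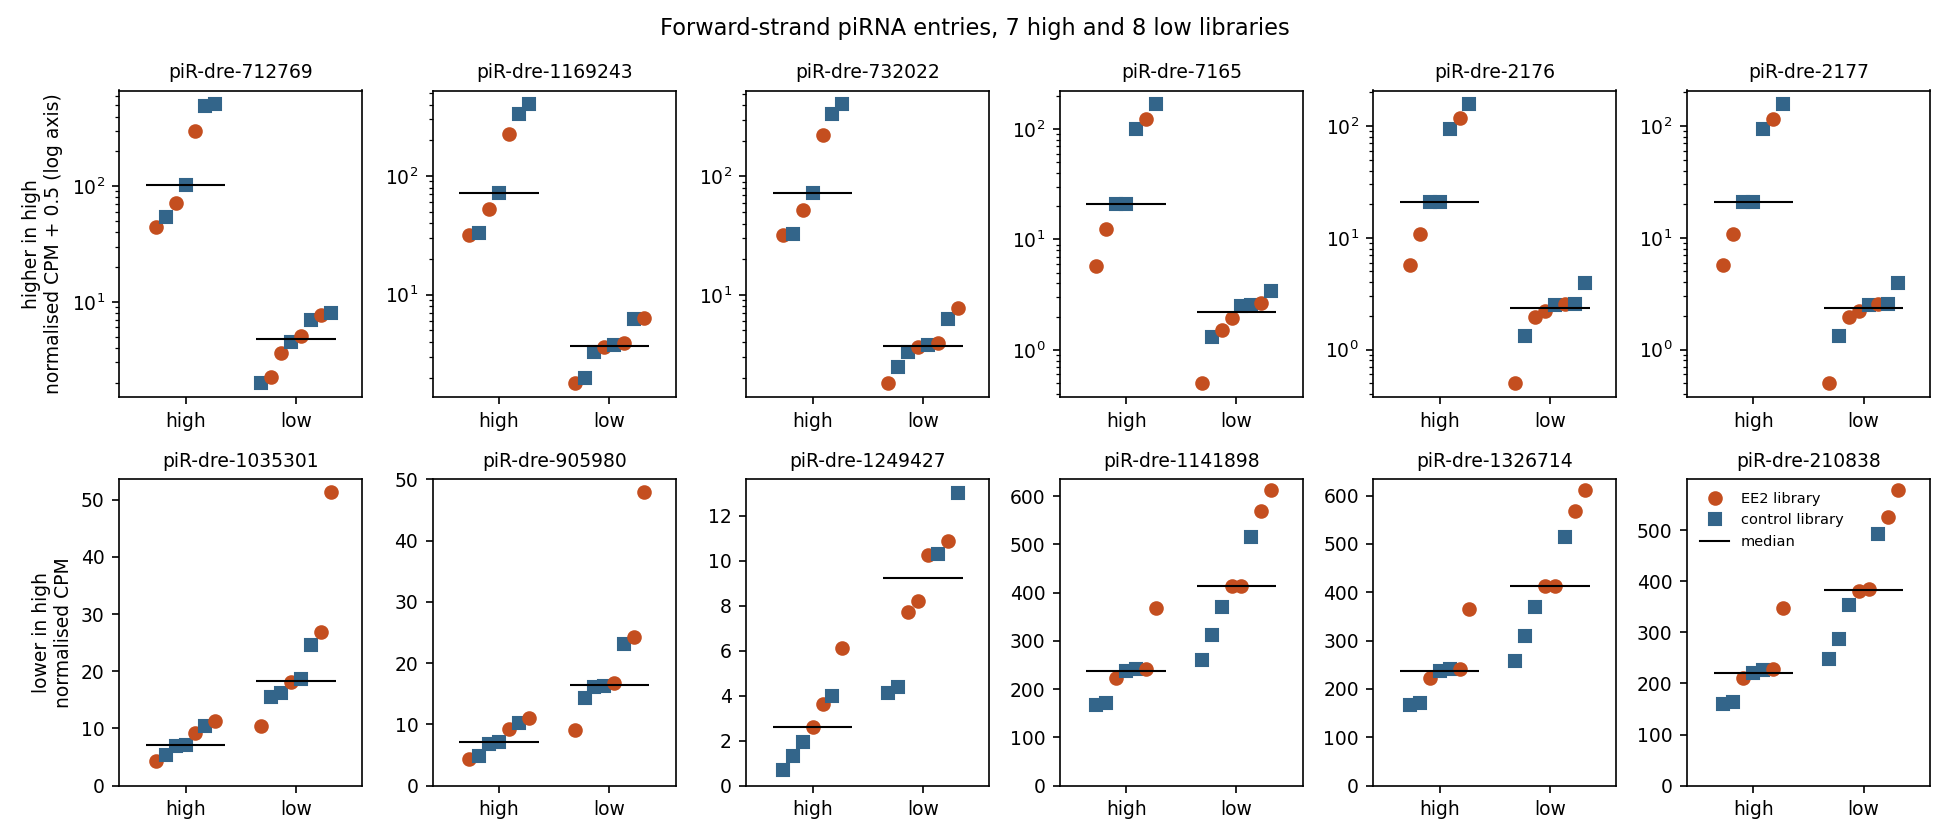
Normalised CPM of the 6 rising (top, CPM + 0.5 on log axes) and 6 falling (bottom, linear axes from 0) forward piRNA entries with the smallest p, 1 point per library, with set medians as lines. In the top row all high libraries lie above all low libraries, and in the bottom row the sets overlap. The entries of the top row either follow piR-dre-644638 almost exactly or entered the test through the high set. In the bottom row, piR-dre-1249427 entered the test through the low set.

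Of the 10 piRNAs with the largest mean share, 0 passed, which at 6.90% over all entries is no result about them, with a median log2 fold change of -0.04 beside 0.01 over all entries. piR-dre-4794 had 20033 to 204689 CPM in the high set and 28131 to 146880 CPM in the low set, a wide spread within each (log2 fold change 0.07 ± 0.43 SE, edgeR adjusted p = 0.949). piR-dre-5462 (0.12 ± 0.46, adjusted p = 0.917) and piR-dre-679748 (-0.31 ± 0.29, adjusted p = 0.599) did not pass either.

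On the reverse strand of the piRNA entries, calls went both ways. Of 432 entries tested, 46 passed (10.6%), 28 rising (6.48%) and 18 falling (4.17%) in the high set, and piR-dre-644638 itself has no reverse-strand row. piR-dre-30830 had 260, 411 and 697 CPM (relative to forward piRNA reads) in the high set, against 89.5, 132 and 211 CPM in the low set (log2 fold change 1.63 ± 0.25 SE, edgeR adjusted p = 0.00134). piR-dre-1067962 had 77.4, 174 and 816 CPM in the high set, against 22.9, 33.2 and 63.8 CPM in the low set (3.13 ± 0.51, adjusted p = 0.00134). The sets did not overlap for either, nor for piR-dre-690731, piR-dre-603835 and piR-dre-1023349, with log2 fold changes of 3.98, 4.82 and 3.71. In all, 6 reverse entries (1.39%) had sets without overlap, all higher in the high set. Of the 28 rising entries, 4 had no low library at 5.15 reads per M, the filter's level at library sizes without TMM factors. All 4 such entries tested were among the 28, and they were not taken out of these counts. piR-dre-690731 and piR-dre-1023349 were among these 4. With TMM factors, as in the fit, EE2 replicate 9, a low library, had 5.81 CPM of piR-dre-690731. Control replicate 4, also a low library, had 4.96 CPM of piR-dre-1023349. The highest low levels of both thus lay close to the level of the filter. Of the low set, only control replicate 4 reached that level for piR-dre-603835, at 7.03 CPM with TMM factors. piR-dre-690731, piR-dre-603835 and piR-dre-1023349 thus passed the filter through the high set, which favoured a rise. Their folds, tests and lack of overlap are a description, and all of them are among the 6 entries without overlap. For piR-dre-24483 (3.03 ± 0.51, adjusted p = 0.00134) EE2 replicate 8, a high library at 17.7 CPM, lay under EE2 replicate 1, a low library at 20.1 CPM.

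The 6 named falling reverse entries had smaller changes, from -1.30 for piR-dre-167951 to -0.77 for piR-dre-1205847. piR-dre-1205847 had 60.3, 67.9 and 75.6 CPM in the high set, against 69.8, 123 and 141 CPM in the low set (edgeR adjusted p = 0.0113). piR-dre-268299 had 5.89, 8.57 and 13.8 CPM in the high set, against 12.4, 24.2 and 29.4 CPM in the low set (-1.25 ± 0.27, adjusted p = 0.0102). piR-dre-211363 (-0.84), piR-dre-1262810 (-1.08) and piR-dre-1169222 (-1.19) passed as well, and the sets overlapped in all 6. Reverse piR-dre-211363 had 3793 reads in the high set and 5818 in the low set. Forward piR-dre-210838, of the falling forward group, had 3771 and 5768. Whether these entries share reads was not tested, so they may not be separate results. The reverse entry least like piR-dre-644638 was piR-dre-1067598 (r = -0.83 over 15 libraries), at 1.71 to 4.52 CPM in the high set and 3.99 to 7.74 CPM in the low set (-1.07 ± 0.28, edgeR adjusted p = 0.0204). No high library reached the filter's level (5.15 reads per M without TMM factors) for it. This entry thus entered the test through the low set and had to differ, so its values are a description. How many other falling entries entered in that way was not counted.

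Entries listed on both strands were counted separately. Of 129 such piRNA entries, 94 passed the filter on the reverse strand, and 10 of these rose and 11 fell in the high set (22.3%, beside 10.6% of all reverse entries). These calls were not all separate. Among the rises, piR-dre-22790, piR-dre-1143071 and piR-dre-27337 were linked at r over 0.98. Among the falls, so were piR-dre-1083564, piR-dre-5890 and piR-dre-341553, and piR-dre-1183350 with piR-dre-30944. Over all reverse entries, such links left 22 profiles of the 28 rising and 15 of the 18 falling. On the forward strand 118 passed the filter and 0 were called (beside 6.90% of all forward piRNA entries). Among the 86 tested on both strands, 20 were called on the reverse strand. piR-dre-30830 changed by 1.63 ± 0.25 on the reverse strand and had -0.13 ± 0.43 on the forward strand (log2, SE, adjusted p = 0.901). piR-dre-24483 changed by 3.03 ± 0.51 on the reverse strand and had 0.31 ± 0.31 on the forward strand (adjusted p = 0.608). Of 52 miRNA entries listed on both strands, 1 rose and 2 fell on the forward strand (5.77%, beside 14.1% of all forward miRNA entries), and 1 of the 46 tested on the reverse strand rose. The difference between the strands was not tested.

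Of 50 reverse-strand miRNA entries, 1 passed (2.00%), novelMiR_10848, at 9.86, 14.9 and 17.0 CPM (relative to forward miRNA reads) in the high set, against 5.38, 8.46 and 10.9 CPM in the low set (log2 fold change 0.72 ± 0.14 SE, edgeR adjusted p = 0.00346). The forward-strand entry of novelMiR_10848 had 0.78 ± 0.26 (adjusted p = 0.0544). novelMiR_14047 and novelMiR_22540 had -0.47 ± 0.14 each and did not pass (edgeR adjusted p = 0.0638 for both), although DESeq2 called them (adjusted p = 0.0309 and 0.0353) among 6 calls. novelMiR_46633 (0.45 ± 0.28, adjusted p = 0.360) and novelMiR_21576 (0.13 ± 0.11, adjusted p = 0.561) did not pass, and with novelMiR_10848 they were the reverse miRNAs most like piR-dre-644638 (r = 0.54, 0.58 and 0.84 over 15 libraries). In edgeR the number of calls became 5 without EE2 replicate 8, 4 without control replicate 1 or control replicate 10, and 2 without EE2 replicate 6 or control replicate 2.

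The difference between high and low libraries was also compared between EE2 and control larvae. No entry had an interaction of split and exposure past an adjusted p of 0.05 in any of the 4 tables (edgeR quasi-likelihood test). At an unadjusted p under 0.05 there were 6 of 498 forward miRNA, 0 of 50 reverse miRNA, 71 of 1724 forward piRNA and 6 of 432 reverse piRNA entries. DESeq2 called 2 forward miRNA entries and 0 in the other tables. For novelMiR_29462 the log2 fold change of high over low was 2.51 among EE2 libraries and 3.65 among controls (interaction -1.13 ± 0.76 SE, edgeR adjusted p = 0.993).

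Within one exposure the sets are smaller. Among control libraries alone (4 high, 4 low) 29 forward miRNA, 39 forward piRNA and 15 reverse piRNA entries passed. Among EE2 libraries alone (3 high, 4 low) 3, 3 and 0 did. The 3 forward piRNA calls were piR-dre-712769, piR-dre-1169243 and piR-dre-732022, which also passed among controls alone. They follow the split entry almost exactly, so the split itself largely sets their result and they are a description. Among the named miRNAs with a test, novelMiR_29462 passed in EE2 and in control libraries alone. Of the 70 forward miRNAs called in all 15 libraries, 69 had the same sign in both exposures and 1 could not be fitted in both, against 351 with the same sign among all 498 tested. The same held for 116 of 119 forward piRNA calls (1063 of all 1724) and 41 of 46 reverse piRNA calls (287 of all 432). Calling an entry over both exposures favours a shared sign, so these counts are a description. Without EE2 replicate 5, 36 forward miRNA and 73 forward piRNA entries passed. Without control replicate 7 the forward piRNA count was 185.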

How the data were processed

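Per the labels' protocols, the TruSeq Small RNA kit was used for the libraries, which were analysed from 4 deposited tables of raw read counts, forward and reverse for miRNA (20 libraries) and for piRNA (15 libraries). The submitters' processing notes name Bowtie 1.2.3 and bcl2fastq 2.19.1, and for statistics edgeR 3.26.8 and limma 3.40.6. How Bowtie was set, and what was done with reads that match several entries, was not given in the sources used here. F and R in the table names were taken as forward and reverse strand, which no label states. Reads shared between near-identical entries could be counted in each or split among them.

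Forward totals per library were 10.0 to 24.1 M for miRNA and 1.02 to 3.08 M for piRNA. Reverse totals were 75368 to 211513 for miRNA and 56993 to 170677 for piRNA. High against low was tested with edgeR 4.0.16 (R 4.3.3; filterByExpr with a minimum count of 10, TMM factors and library sizes from the forward table, robust quasi-likelihood fit, exposure as covariate, Benjamini-Hochberg adjustment per table), with piR-dre-644638 left out of the fit and novelMiR_24836 out of the counts of calls. The procedure was tested on simulated data. Library measures were compared by exact permutation within exposure (smallest possible p 0.000408). Profiles used log2(reads per M forward reads of the class + 0.5) without TMM factors, and components used log2(CPM + 0.5). DESeq2 1.42.0, limma 3.58.1 voom, other scalings, filters, covariates and left-out libraries were tried as alternatives.

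In each table the text names the 6 entries of smallest p per direction among those called (2 where fewer than 2 pass), the 3 most and 2 least like piR-dre-644638, and in forward tables the 3 most abundant; novelMiR_18155, novelMiR_34702 and the members of the groups of alike entries were chosen after their values were seen. The split, the members and the lists were chosen with earlier results of these data known. No pair of libraries agreed within sampling noise (chi-square per degree of freedom at least 116 for miRNA and 21.8 for piRNA).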

Additional observations from a re-analysis of the deposited data

Results flagged for a closer look

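In 120 sets of library values (high or low, per named entry or library measure), no single library stood apart by Dixon's test, where chance alone sets apart about 6.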

How the results depend on the processing

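High against low called 70 miRNA and 119 piRNA entries on the forward strand and 1 miRNA and 46 piRNA entries on the reverse strand. Without a filter on low counts it was 4 for reverse miRNA, 222 for forward piRNA and 104 for reverse piRNA. DESeq2 called 6 reverse miRNA entries, the fit without the exposure covariate 3, and the fit on the log2 level of piR-dre-644638 called 5. EE2 libraries alone gave 3, 0, 3 and 0 calls (forward then reverse miRNA, then piRNA likewise), and control libraries alone gave 29, 0, 39 and 15, with fewer libraries in each. The 3 forward piRNA calls of the EE2 libraries were the entries closest to piR-dre-644638. Leaving out each library in turn gave 36 to 85, 1 to 5, 73 to 185 and 32 to 58 calls. Same-numbered EE2 and control libraries did not deviate together (5 shared numbers, r from -0.33 to 0.22 for forward miRNA and -0.29 to 0.19 for forward piRNA, none highest with its own number). A replicate block, with 3 residual degrees of freedom, gave 21, 0, 15 and 0 calls. DESeq2 called 2 forward miRNA interactions of split and exposure where edgeR called 0, and edgeR called 0 in each table without any library (alternatives added after the data were seen). For library measures, leaving out each library moved the high minus low difference between 26.4 and 34.3 forward piRNA entries with a read, between -0.231 and 0.306 reverse counts per 100 forward piRNA counts, between -1.93 and -1.03 points in the share of the 10 most abundant miRNA entries and between -2.67 and 1.02 points in that of piRNA entries. The miRNA share passed without EE2 replicate 7 (exact permutation, adjusted p = 0.0321). Of 1061 comparisons of 41 named entries with an alternative, 0 reversed direction. Most of these entries were named for a small p in the same libraries, and the alternatives reuse the same counts, so this is a description. Fits in which an entry did not pass the filter are not among the 1061. The causes of these changes were not tested.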

Other observations

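Both forward miRNA entries that DESeq2 called for an interaction of split and exposure fell short in edgeR. novelMiR_35382 had an interaction of 1.28 on the log2 scale in DESeq2 (adjusted p = 0.0174; edgeR adjusted p = 0.245), with 207 to 339 reads in high EE2 libraries and 63 to 154 in low EE2 libraries, against 76 to 146 in high controls and 71 to 167 in low controls. novelMiR_13488 had 2.38 (DESeq2 adjusted p = 0.0122; edgeR adjusted p = 0.227), with 65 to 167 reads in high EE2 libraries and 38 to 111 in low EE2 libraries, against 14 to 22 in high controls and 66 to 157 in low controls. These ranges are raw reads, not scaled for depth.

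The falling miRNAs can also be read in the libraries outside the split. Of the 5 libraries without a piRNA column, the number within the range of the high set was 5 for novelMiR_14321, 4 for novelMiR_30955, 3 for novelMiR_39194 and novelMiR_41265, and 2 for novelMiR_3490 and novelMiR_37847. The number within the range of the low set was 1, 0, 4, 5, 2 and 3 in the order novelMiR_14321, novelMiR_30955, novelMiR_39194, novelMiR_41265, novelMiR_3490 and novelMiR_37847, and a library can lie in both ranges. Levels were compared in reads per M forward miRNA reads without TMM scaling.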
